A study of Mus musculus with 8 samples.

Results

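Isolated intronic starts far from promoters are short regions inside introns where capped nascent RNA began, remote from the starts of the GENCODE M21 annotation and from other rows of the same list. They were chosen from the larger old and the larger young list of cryptic peaks of mouse liver, each row 150 bp wide. A member had no base in a GENCODE M21 exon and its centre inside a GENCODE M21 gene. That centre lay at least 20000 bp from every annotated transcript start on either strand, and no other row of the same list lay within 5000 bp. In all, 245 of 1401 rows met this rule, 154 of 976 old rows and 91 of 425 young rows. The lists themselves were selected on measured values, since each row carries a deposited fold of at least 10 for its own age over the other. Folds and reads are therefore given as descriptions, with no test.

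The study compared liver of young C57BL/6J mice (2 to 4 months, from Jackson Laboratories) with liver of old C57BL/6J mice (22 to 25 months, from the rodent colony of the National Institute on Aging). All animals ate standard chow freely, both sexes were used, and the labels name no transgene, mutation or drug. Chromatin run-on with capture of capped RNA (PRO-cap, here ChRO-cap) was carried out on about 250 mg of frozen liver, with 4 samples per age. Age cannot be told apart from the supplier of the animals. Each list holds 1 pooled value per peak, so no spread between animals exists. By the labels a larger list belongs to each of the 4 samples of an age, yet its name carries the mark of the female files, so both sexes or only females may have been pooled. Whole liver was used, so fewer cells of a type and less RNA per cell cannot be told apart, and the lists hold no expression values against which marker genes could be checked. The strand column is filled with 1 sign throughout, so the strand of every peak is unknown.

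RNA polymerase II normally begins at promoters, where the new transcript receives a cap soon after it emerges. Run-on assays that enrich capped 5′ ends also mark enhancers, which are often intronic and give short unstable RNAs, and they mark starts inside gene bodies that are called cryptic. Cryptic starts are held down in transcribed genes by nucleosomes that are put back behind the polymerase and by the chromatin marks it leaves, and their rise with age has been described in several organisms.

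Sequence could be shown for 1 member, the old-list peak in Smurf1, which encodes a ubiquitin ligase of TGF-β and BMP signalling. It is shown because this was the member with the second most old-side reads, and because RefSeq places a start there that GENCODE M21 lacks. The RefSeq window of Gm33821 (GRCm38.p6, plus strand, chr5:144919803-144920102) runs 5′ to 3′ below, with the 150 bases of the member, chr5:144919816-144919965, in capitals.

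Gm33821 window with the Smurf1 member: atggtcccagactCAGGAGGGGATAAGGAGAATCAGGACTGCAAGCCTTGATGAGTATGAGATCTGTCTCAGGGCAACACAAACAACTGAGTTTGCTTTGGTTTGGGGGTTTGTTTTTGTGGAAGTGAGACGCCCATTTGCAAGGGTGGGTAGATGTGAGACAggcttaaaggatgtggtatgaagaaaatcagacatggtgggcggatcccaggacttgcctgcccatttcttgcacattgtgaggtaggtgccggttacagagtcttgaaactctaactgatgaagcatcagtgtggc

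The member filled bases 14 to 163 of the 300 bases, and the RefSeq start stood at base 251, so the peak's centre was 162 bp from it. Smurf1 itself is on the minus strand, opposite to Gm33821. The window had a GC content of 48.7% and 3 CpG, beside medians of 52.7% and 7 over all 32851 RefSeq windows of this length. Of 13 motifs searched on both strands, the GC box GGGCGG was found once, on the plus strand at base 202, and the RUNX core TGTGGT once, on the plus strand at base 175. They occur in 35.7% and 16.8% of all windows. Both matches lay outside the capitals. The letters of the other motifs are not in this window: the TATA box TATAAA, the CCAAT box, the ETS core AGGAAGT, the C/EBP core TTGCNNAA, the HNF4 core CAAAGTC, the FOXA core TGTTTAC, the HNF1 half-site GTTAATNA, the nuclear receptor half-site AGGTCA, the AP-1 site TGANTCA, the E-box CACGTG and the GATA site AGATAAG. The shares of windows that hold these run from 2.54% for the HNF1 half-site to 37.4% for the CCAAT box.

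Reads behind each deposited fold were recovered as whole numbers on the age with the higher value and on the other age. Old members rested on a median of 142.5 old-side reads, the middle 50% between 101.25 and 219.5, and the extremes at 25 and 977. Young members rested on a median of 162 young-side reads, the middle 50% between 106.5 and 233.5, and the extremes at 30 and 787. Members were thus of similar depth in both lists, and 119 of 154 old and 76 of 91 young members had 100 reads or more. This depth was shared by the lists as a whole. All rows had medians of 159.5 (old) and 162 (young) reads, with lower quartiles of 107 and 109. Rows that were not members had medians of 164 and 163. Under 50 reads lay behind 2 young members, in Gm13483 with 48 and in the phosphodiesterase gene Pde6c with 30. On the other age, the median was 5 reads for old members and 6 for young members, and the highest values were 53 and 63.

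No read on the other age was found at 45 of 154 old members, or 29.2% (95% Clopper-Pearson interval 22.2 to 37.1), where 36.0% of all rows of the old list had none. At young members the count was 28 of 91, or 30.8% (21.5 to 41.3), against 25.2% of all rows of the young list. The share of each whole list lay inside the interval of its own members, so this share did not set members apart from their lists. The ratio of reads, scaled by relative depth, had a lower bound of at least 10 at 100 of 154 old members (64.9%) and 57 of 91 young members (62.6%). Over all rows the share was 72.2% (old) and 56.7% (young). Intervals of ratios, here and throughout, cover counting error of reads only. Those of shares treat rows as independent draws, although some rows share a gene, and show no spread between animals. A ratio against 0 reads is a lower bound computed with a floor of 3 reads. It is a different measure from the lower limit of an interval, so counts and rankings of lower bounds mix both kinds.

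**Figure D1:**
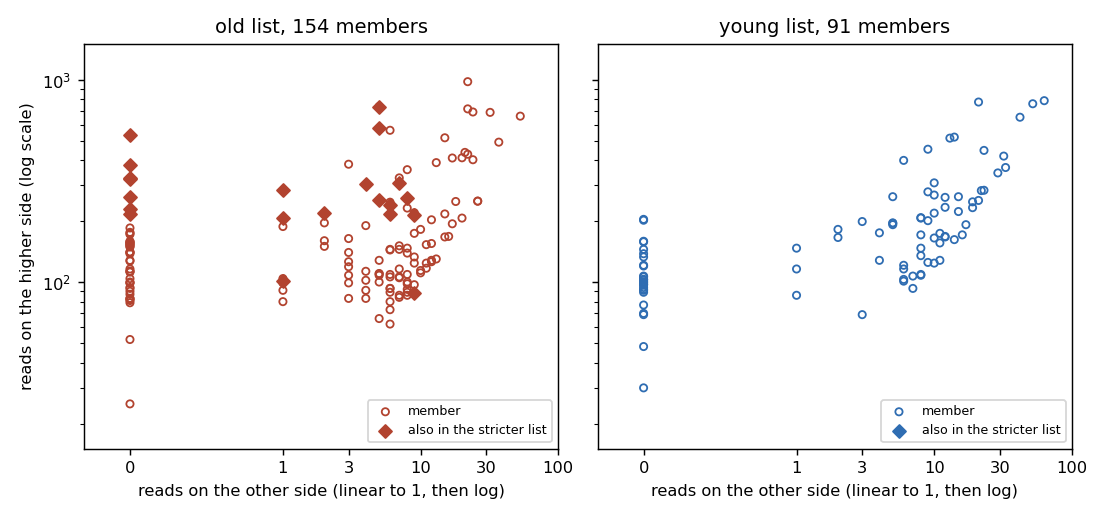
Each point is 1 member, with its reads on the other age on the horizontal axis (linear from 0 to 1, then logarithmic) and its reads on the age of its list on the vertical axis (logarithmic). Filled diamonds mark the 21 old members that overlap the stricter old list, and no young member overlaps the stricter young list. Members with 0 reads on the other age form the left column, 45 in the old panel and 28 in the young panel.

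The named members are ordered here by what is known of their host genes, as an aid to reading and with no count of any such group. In Nfatc1, a calcium-responsive factor of lymphocytes, the old member at chr18:80661034-80661183 had 977 reads in old and 22 in young liver, a ratio of 46.6 (30.6 to 74.7). This was the highest read count of any member, in intron 7 of 11, and another row of the old list lay 6744 bp away. Zbtb20, a zinc finger repressor expressed in liver, held 2 old members, with 689 reads against 32 and with 83 against 0. They were 204770 bp apart in different introns. Bend4, which encodes a protein with a BEN domain, had 562 reads against 6 in its last intron, and the RefSeq start of Gm33345 lay 866 bp away.

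Among young members, Zbtb16, which encodes the zinc finger protein PLZF, had 775 young-side and 21 old-side reads, a ratio of 35.2 (22.8 to 57.1), at 105446 bp from the nearest start. Rora, a nuclear receptor of circadian and metabolic control in liver, held 4 young members, the most of any gene in either list. Their young-side reads were 368, 107, 107 and 106, and their old-side reads were 33, 7, 0 and 0. The first pair lay in intron 4, which is 530573 bp long, and the second pair in intron 9, spread over 217828 bp in all.

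Sik3, a salt-inducible kinase, had 717 old-side reads and 22 young-side reads at an old member 20101 bp from a start, the old member closest to the threshold. Stk3, the Hippo pathway kinase MST2, had 533 reads against 0 in its last intron, chr15:34933083-34933232, at least 186-fold higher in old liver and the highest lower bound of any member. Stk32c, a serine/threonine kinase gene, had 660 reads against 53, the most other-age reads of any old member, and its ratio was 13.1 (9.87 to 17.6). The tyrosine kinase gene Fer had 138 against 0, a lower bound of 48.3, in intron 22 of 23. In young liver, Grk5, a kinase of G protein-coupled receptors, had 514 reads against 13. The receptor tyrosine phosphatase gene Ptprg had 204 against 0, at least a 64.8-fold excess in young liver and the highest lower bound of the young members.

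Pde4d, a phosphodiesterase that breaks down cyclic AMP, held members of both ages in intron 20 of 32. The old members had 692 reads against 24 and 380 against 0, at 7470 bp from each other. The second was at least 133-fold higher in old liver. The young member had 223 young-side and 15 old-side reads, 36036 bp from the nearer old one. Prkar2b, a regulatory subunit of protein kinase A, had an old member with 253 reads against 5, and Pde7b, another phosphodiesterase gene, a young member with 69 against 3.

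Rhoh, a small GTPase gene of blood cells, had 575 old-side and 5 young-side reads, a ratio of 121 (51.4 to 373). Elmo1, a partner of DOCK proteins in Rac activation, had 158 against 0. Young members lay in Asap1, an Arf GTPase-activating protein, with 453 against 9 and 69 against 0. Further young members were in Rapgef2, an activator of Rap, with 121 against 0, and in Dlc1, which encodes a GTPase-activating protein, with 208 against 8 and 133 against 0. The guanine nucleotide exchange factor genes Arhgef12 and Arhgef3 had 98 against 0 and 128 against 11, and the Arf regulator Agap1 had 124 against 10.

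Il7, which encodes the cytokine interleukin 7, had 285 reads against 1 at a member 117 bp from an exon, a ratio of 299 (53.3 to 11856). The next row of the old list was 61580588 bp away, the most remote neighbour of any old member. Slamf1, a lymphocyte receptor gene, had 259 against 8, and Il6ra, the interleukin 6 receptor gene, held 2 members with 153 against 11 and 119 against 3. Runx2, Ets1 and Bach2, which encode transcription factors, had 91 against 4, 139 against 8 and 140 against 0. Foxp1 had 207 against 1 at a single member, 2595 bp from the RefSeq start of Gm38865. In the young list, Plcg2, a phospholipase of immune receptor signalling, had 97 against 0.

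Hs3st4 and Hpse2, which encode a heparan sulfate sulfotransferase and heparanase 2, had 262 and 218 old-side reads with 0 young-side reads, at least 91.7-fold and 76.3-fold higher in old liver. Tenm4, a teneurin gene, had 220 against 2, and Ptprk, a receptor tyrosine phosphatase gene, 140 against 0. Cngb1, a subunit of cyclic nucleotide-gated channels, had 185 against 0. Lrig1, a brake on receptors of the EGF family, had the most reads of the young members, 787 in young and 63 in old liver, a ratio of 11.9 (9.20 to 15.6). Adgrv1, an adhesion G protein-coupled receptor gene, had 760 against 52, and Sema5b, a semaphorin gene, had 399 against 6. In Atp8b4, which encodes a lipid flippase of the P4-ATPase family, the count was 419 against 32, and in Slc22a23, a gene of the organic ion transporter family, it was 447 against 23.

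Other young members with no old-side read lay in Btbd7 with 202 reads, in Nhs with 159, in Dpp6 with 158, in Dlg2 with 145, in Dnah5 with 138 and in Mcc with 120. Dpp6 encodes an accessory protein of potassium channels, Dlg2 a synaptic scaffold and Dnah5 a dynein heavy chain of cilia. The non-coding gene 1110020A21Rik, at 20079 bp from the start of Ppm1b, had 520 young-side and 14 old-side reads, a ratio of 35.4 (20.9 to 65.2). Among the 6 members before it, the lower bounds ran from 38.1 in Mcc to 64.2 in Btbd7.

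Ranbp10, a Ran-binding scaffold gene, had 733 reads against 5 and a ratio of 154 (65.6 to 475), nearly the values of the Smurf1 member, 736 against 5 and 154 (65.9 to 477). Uqcc1, an assembly factor of respiratory complex III, had 325 against 0 and Clec16a, a regulator of mitophagy, 322 against 0, at least 114-fold and 113-fold higher in old liver. Msi2, an RNA-binding protein of the Musashi family, held 2 members in 1 intron, with 229 and 112 old-side reads and no young-side read. Lipc, the hepatic lipase gene, had 203 against 12. Sgms1, a sphingomyelin synthase gene, carried a young member with 147 against 8, and Met, the receptor for hepatocyte growth factor, one with 199 against 3. The chromatin remodeller genes Arid1b and Chd7 had old members with 491 against 37 and 109 against 6.

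The stricter lists of the submitters, 1 per age, were used as a further readout. Which libraries entered them is not stated in the sources used here. Of the old members, 21 of 154 overlapped a stricter old peak by at least 1 bp, or 13.6% (8.64 to 20.1), where 21.9% of all old rows did. For rows that were not members the share was 23.5%, and for far intronic rows with a neighbour within 5000 bp it was 38.1% (29.1 to 47.7). Isolated rows closer to a start gave 16.5% (12.3 to 21.4), and rows closer to a start with a neighbour gave 26.4% (21.2 to 32.2). The 12 such members with most reads were in Ranbp10, Rhoh, Stk3, Pde4d, Uqcc1, Clec16a, Ubac2, Il7, Hs3st4, Slamf1, Prkar2b and a region shared by Filip1l and Cmss1. The others were in Cmah, Msi2, Tenm4, Hpse2, Vstm4, Emb, Foxp1, Ror1 and Nr3c2. Neither Nfatc1 nor Smurf1, which had the most reads, was among them. Among young members 0 of 91 overlapped the stricter young list, which allows a share of up to 3.30% by a floor of 3 counts and 3.97% by the upper Clopper-Pearson limit, and the background was 0.941% of all young rows. That list has only 10 rows.

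**Figure D2:**
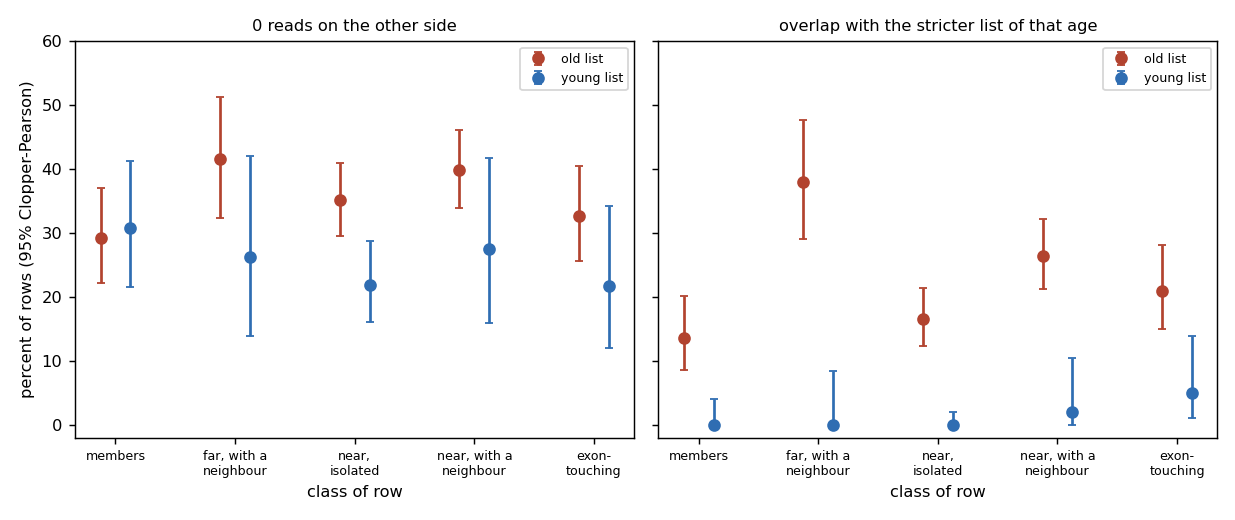
Percent of rows with 0 reads on the other age (left) and percent that overlap the stricter list of the same age (right), for members and for the other classes of row inside genes in both larger lists, with bars for the 95% Clopper-Pearson interval. In the right panel old members stand at 13.6% and far intronic old rows with a neighbour at 38.1%.

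Members were spread over the genome. Old members lay on 21 chromosomes and young members on 20, with the highest counts on chromosome 2, 12 old and 8 young. Chromosome X held 4 old members and 1 young member. The single member on chromosome Y was an old one in Gm47283, with 159 reads against 0, in the region that the sex chromosomes share, so its reads can belong to X or Y. To the next row of their own list, 99 of 154 old and 64 of 91 young members had more than 100000 bp, and 59 and 44 had more than 1000000 bp. This spacing is part of the rule. Its median was 488288 bp for old and 844745 bp for young members. Isolated intronic rows closer to a start had 400404 and 999863 bp.

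Members lay toward the near edge of the territory that the rule admits. That territory, intronic bases at least 20000 bp from a start, comprised 392.6 Mb, with 0.392 old and 0.232 young members per Mb. It took in every annotated gene, transcribed in liver or not, and ignored the spacing between rows. The part of this choice in the differences below was not tested. Its bases were a median of 43225 bp from a start, while the median was 32580 bp for old and 31944 bp for young members. Within 30000 bp lay 28.2% of the territory, 41.6% of old members (33.7 to 49.8) and 45.1% of young members (34.6 to 55.8). From 100000 bp on lay 15.2% of the territory, 15 old members (9.74%) and 6 young members (6.59%). Reads showed no steady course with distance. From 20000 to 30000, 50000, 100000 bp and beyond, the median was 147, 139.5, 153 and 150 reads for old members and 182, 125.5, 158.5 and 237.5 reads for young members.

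**Figure D3:**
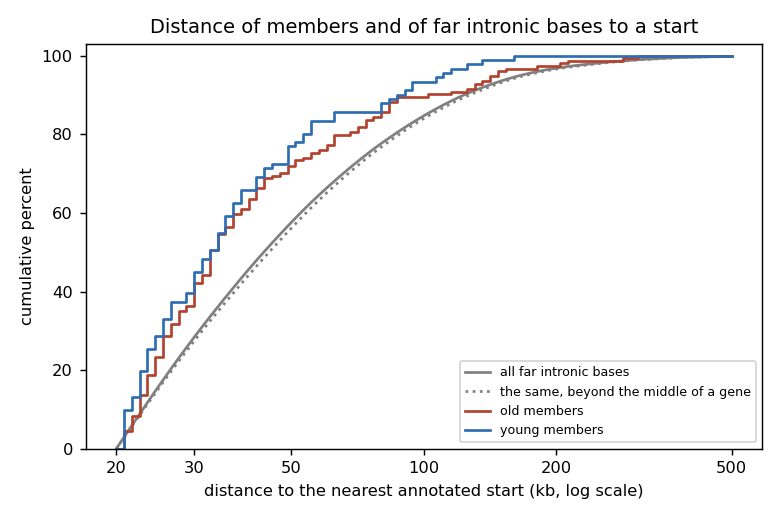
Cumulative percent of old members, young members and far intronic bases against the distance to the nearest annotated start in kb (logarithmic axis). The dotted line takes only bases beyond the middle of a gene. Between 30 and 100 kb both member curves lie above those of the territory, with medians of 32580 bp (old) and 31944 bp (young) against 43225 bp for all far intronic bases.

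By the GENCODE M21 annotation, the members farthest from a start were in Rad51b at both ages, a gene of homologous recombination. Its 3 old members stood 296550, 278070 and 203876 bp from the nearest start, with 411 reads against 20, 155 against 12 and 93 against 0. Its young members had 652 against 42 at 157860 bp and 262 against 12 at 76879 bp. Sgcd, a sarcoglycan gene, stood between the second and the third of these, at 208226 bp with 100 reads against 8, and Fer followed at 176816 bp. Among young members the order went on with Dnah5 at 130550 bp, Nrp1 at 120558 bp, Ror1 at 111677 bp and Nsmce2 at 107210 bp. In the RefSeq table a start lay much closer to some of these, at 2773 bp from the Fer member, 13020 bp from the young Nrp1 member and 29048 bp from the first young Rad51b member. Nsmce2, a SUMO ligase of the SMC5/6 complex, also held 3 old members, with 410 against 17, 172 against 0 and 145 against 7 reads.

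Most members lay late in their host gene. Beyond its middle were 145 of 154 old members (94.2%) and 84 of 91 young members (92.3%), at median relative positions of 0.74 and 0.70, where 0 is the start and 1 the end. All rows of the 2 larger lists had medians of 0.75 and 0.72, so the late position was shared by the lists as a whole. Exceptions among old members included Nfatc1 at 0.49, Runx2 and Ror1, and among young members Rad51b at 0.21. Introns between the merged exons of the host gene had a median length of 28703 bp at old and 24559 bp at young members. Far intronic rows with a neighbour had medians of 36126 bp (old) and 24334 bp (young), so long introns were not particular to members. Over all rows whose centre lay in such an intron, the medians were 13699.5 and 13807 bp. The first such intron held 7 old and 5 young members and the last 17 and 7. The median intron number was 7 for members and for all rows of either list. An exon of the host gene lay within 1000 bp of 28 old members (18.2%) and 15 young members (16.5%). The lower quartile of that distance was 1719.25 bp at old and 1634.5 bp at young members. Far intronic rows with a neighbour had 1870 and 1544.25 bp, and all rows in such introns 830 and 1106 bp.

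The nearest annotated start belonged to a host gene for 75 of 154 old members (48.7%, 40.6 to 56.9) and 58 of 91 young members (63.7%, 53.0 to 73.6). Elsewhere it belonged to another gene, as with Gm24371 for Bach2. Shares over all rows are not given here, for this or for the RefSeq counts below. Neither these values nor their difference between ages can therefore be called particular to members. Distance to a start also depends on the annotation. In the RefSeq table, 10 old and 2 young members had a start within 5000 bp, and 23 old and 4 young members had one within 20000 bp. Among them were the Smurf1 member at 162 bp and the Bend4 member at 866 bp. The table covers 150 old and 86 young members, since it has no entry on chromosome 18.

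Old members fell in 137 host genes, 131 of them protein-coding, and young members in 84, 80 of them protein-coding. Of 4730 protein-coding genes with an intronic base far enough from a start, 2.77% hosted an old member and 1.69% a young one. Genes with 2 or more members numbered 15 for old and 5 for young liver. The old genes beyond those described were Ablim1 (84 and 437 reads), Cask (194 and 248), Nrp2 (104 and 217), Suclg2 (196 and 207), Syt1 (86 and 190), Rftn1 (100 and 127), Spef2 (80 and 108), Klhl29 (83 and 90) and Clic4 (106 and 164). Suclg2, a subunit of succinyl-CoA ligase of the citric acid cycle, had both within 13736 bp in 1 intron, with 20 and 2 young-side reads. Abhd17c was the further young gene, with 234 and 162 reads at 5028 bp from each other, the smallest spacing among young members.

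Genes with members of both ages numbered 10, which is 7.30% of old and 11.9% of young host genes. In 7 of these 10 an old and a young member shared an intron. Of all protein-coding genes with room for a member, 2.77% hosted an old and 1.69% a young one. Sharing of genes over all rows of the 2 lists is not given here. The part of gene length in the shared genes was not tested. The closest pair was in Clic4, a chloride intracellular channel gene. In its intron 2 the old member, chr4:135230047-135230196, had 164 old-side and 3 young-side reads, and the young member, chr4:135230808-135230957, had 86 young-side reads and 1 old-side read. Only 761 bp separated these centres, and their ratios, 57.4 (19.3 to 281) and 81.9 (14.3 to 3274), pointed in opposite directions. In Pcsk6, a proprotein convertase gene, the pair was 1446 bp apart, with 113 against 0 at the old and 171 against 8 at the young member. In Map3k5, the stress kinase ASK1, it was 2939 bp apart, with 128 against 12 and 249 against 19.

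The remaining pairs were wider. Ror1, a receptor of the ROR family, had 101 against 1 at its old member and 279 against 9 at its young member, 9588 bp apart in its first intron. In Nrp1, a co-receptor for VEGF and semaphorins, the old member had 113 against 4 and the young member 102 against 0, in different introns 16733 bp apart. Sik3 had a young member with 346 against 29, at 23584 bp from its old one, and Adgrv1 an old member with 251 against 26, at 180460 bp from its young one. Nsmce2, Pde4d and Rad51b complete the set, with closest pairs of 24197, 36036 and 46016 bp. Syn3, a synapsin gene with an old member of 111 against 10 reads, also spans the young member assigned to the nested gene Timp3, with 93 against 7. Over all members, a row of the other age's larger list lay within 5000 bp of 3 old and 3 young members, and within 100000 bp of 17 and 21. The median distance to such a row was 2.34e+06 bp for old members and 2.20e+06 bp for all old rows. For young members and all young rows it was 912679 and 922957 bp, so members stood close to their whole lists.

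**Figure D4:**
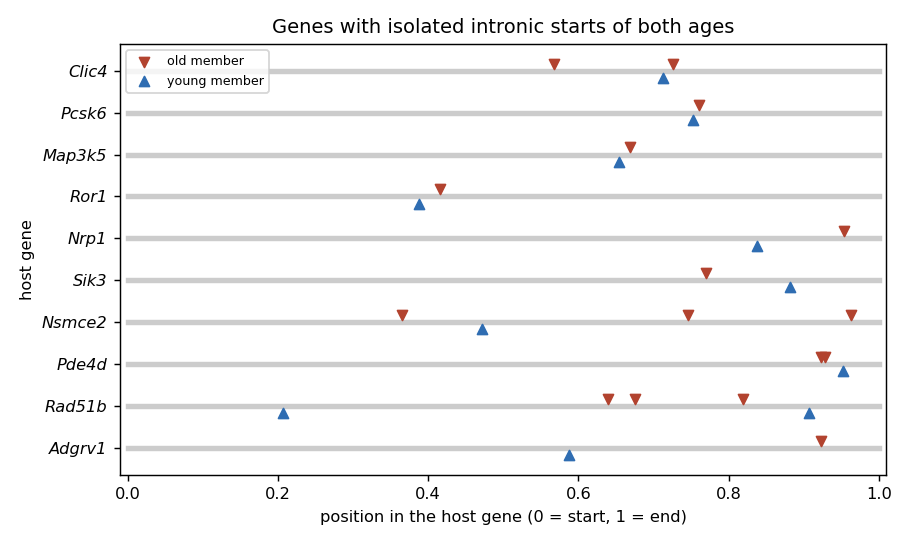
Relative position of old members (triangles pointing down) and young members (triangles pointing up) along the 10 host genes that hold both, from the start (0) to the end (1) of the gene, ordered by the distance of the closest pair. Clic4, Pcsk6 and Map3k5, at the top, have pairs within 2939 bp.

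Gene groups are described by how many of their genes with room for a member hosted one, beside the 2.77% and 1.69% of all such genes. Each group is a partial list written with earlier results of these data known. An excess over these shares can therefore come from the choice of genes and was not tested. Leukocyte transcription and signalling genes hosted old members in 5 of 36 (Bach2, Ets1, Foxp1, Nfatc1 and Runx2) and a young member in 1 (Plcg2). Counting any row of the larger lists, 15 of these genes were hit by old and 3 by young rows, where 7.55% and 4.40% of all 4730 genes were. Small GTPase regulators gave 1 of 34 for old members and 5 for young members (Agap1, Arhgef12, Arhgef3, Asap1 and Rapgef2), while any row gave 8 and 6. This split by age depends on the list, since regulators that are not on it held members too. Old ones lay in genes such as Rasgef1b, Arfgef2, Rasgrp1 and Arhgap19, and young ones in genes such as Dlc1 and Chn2. The list of nuclear receptors and hepatocyte factors gave 0 of 16 and 1, Rora, with 1 and 5 for any row. Rarb and Nr3c2, nuclear receptor genes that are not on that list, held old members with 89 against 6 and 88 against 9 reads.

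Cell adhesion and synaptic scaffold genes hosted old members in 4 of 29 (Anks1b, Magi1, Ptprk and Tenm4) and young members in 3 (Dlg2, Ptprd and Ptprg). Cyclic nucleotide signalling had 2 of 20 at each age, and DNA repair 2 of 14 at each age, the same pair of genes, Nsmce2 and Rad51b. Insulin and growth factor signalling had 0 of 18 old and 2 young hosts, Met and Sos1. Chromatin and transcription genes had 2 of 20 and 1, the latter Bcas3. Lipid metabolism had 1 of 13 at each age and matrix and endothelial genes 1 of 14 (Col14a1, with 109 against 8 reads) and 0. An old member assigned to Btbd16, with 160 against 2 reads, also lies in the growth factor receptor gene Fgfr2 and was not counted there. Long genes have more room for a member, and the part of gene length in these counts was not tested.

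Just outside the distance of 20000 bp stood a row in Rptor at 19922 bp (old) and one in Fam120a at 19436 bp (young), with 226 against 9 and 87 against 8 reads. The young member nearest that edge, in Osbpl1a at 20071 bp, had 97 against 0. Just inside and outside the spacing of 5000 bp were old rows in Elmo1 at 5270 bp and Anks1b at 4859 bp, and a young row in Nfib at 4757 bp with 463 against 16. The lowest deposited folds, ratios as the authors gave them, were 10.09 at old members in Ccdc57 and Adgrv1, each with 251 against 26 reads, and 10.12 at a young member in Pvt1.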

How the data were processed

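PRO-cap of 8 liver samples was analysed from 4 peak lists on mm10, printed 1-based. The larger lists carry 1 deposited fold per peak, a ratio. The stricter lists carry a deposited score of 0 throughout and were used for positions. Per the submitters' processing notes, the tools were BWA 0.7.10, bedtools 2.27.1-65, HOMER, SAMtools 1.1 and cutadapt 2.10, with builds hg19, GRCm38 and mm10. How peaks were called and folds scaled is not stated in the sources used here, and total depth is unknown.

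All 976 and 425 folds were solved as 1 pair of whole read counts each, within 1e-07 reads, trying up to 1000 on the other age. Relative depth, old over young, was 0.953 if both ages share 1 scaling. The solver was checked on simulated data. Python 3.11.15, numpy 2.4.6, pandas 2.3.3 and scipy 1.17.1 were used. Peaks were compared with GENCODE M21 by their centre. Where several genes held it, the shortest protein-coding gene was the host, a choice made after seeing the data.

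Members and gene lists were chosen with earlier results of these data known. Named genes are hosts of the 10 members with most reads, the 10 with the highest lower bound and the 5 farthest from a start per age. They also include those in the stricter list, those with several members or both ages, those on a fixed list and those at the rule's edges. Names beyond these (Gm13483, Pde6c, Gm47283, Btbd16, Timp3, Syn3, Rarb, Rasgef1b, Arfgef2, Rasgrp1, Arhgap19, Chn2) were added after their values were seen. With 1 pooled list per age, no test was possible. RefSeq windows (250 bases before to 50 after a start, GRCm38.p6) gave the printed sequence, and other member sequences were not analysed here.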

Additional observations from a re-analysis of the deposited data

How the results depend on the processing

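Of 40 alternatives, 32 left a value within 1.5 times, or a share within its interval, of the reported one. The number of members followed the distance to a start, from 154 old and 91 young members to 270 and 162 at 10000 bp or more, and to 90 and 50 at 30000 bp or more. With starts of protein-coding transcripts only, there were 279 old and 168 young members, and the reported members lay a median of 58242 bp (old) and 50844 bp (young) from such a start. Chosen after seeing the data were the alternatives with RefSeq starts also excluded (131 old, 87 young), with no row of either list within 5000 bp (151, 88), without chromosome Y (153, 91) and with reads not scaled by depth. GC, CpG, masked bases and motifs of all members, and their alternatives with 300 bases or the higher lower bounds, were not run. No paired analysis was possible because each age has 1 pooled list, and for the same reason no sample could be left out. Folds at members with few reads, such as the young member in Pde6c (30 reads against 0), are limited by counting error.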

Other observations

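Stricter lists also hold regions of the same kind that are not members. By the same rules of position, applied within each stricter list, 47 of 216 old rows and 2 of 10 young rows were intronic, at least 20000 bp from a start and isolated. Of the 47, 21 were members and 40 overlapped a row of the larger old list, some of them rows with a close neighbour there, as in Ikzf1, Bcl11b, Fyn and Msra. The other 7 had no row in the larger list and so no fold or reads: they lay in Syt16, Calcr, Sgcz, Dock2, Bche, Gm30551 and Gm47283. Sgcz, a sarcoglycan gene, had the one farthest from a start, at 190812 bp, and Dock2, a Rac activator of leukocytes, had one at 164987 bp. Both young rows, in Asap1 and in Scara5, a scavenger receptor gene, were outside the larger young list. The Asap1 row, chr15:64153055-64153204, was near the Asap1 member at chr15:64152632-64152781 without overlap, and with centres within 500 bp counted as a match this 1 of 91 young members matched the stricter list.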
